A study of Mus musculus with 160 samples.

Results

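Neutrophil genes and formyl peptide receptors were followed across distal colon RNA-seq libraries from 4 knockout lines. The set has 10 of the 39179 genes counted, chosen by name: the receptors Fpr1, Fpr2, Cxcr2, Csf3r, Trem1 and Clec4e, the surface gene Ly6g, and the secreted products S100a8, S100a9 and Retnlg. All 10 were found in the count files, in each of the 160 libraries, with 1 library per mouse.

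The samples comprised 16 Nckap1l-/- and 15 wild-type mice, 18 Dock2-/- and 24 wild-type mice, 20 Gpsm3-/- and 20 wild-type mice, and 26 Dok3-/- and 21 wild-type mice. Knockouts were homozygous for the null allele of 1 gene, and the controls were wild-type littermates from heterozygous crosses. The labels give the strain as C57BL6/J for Nckap1l, Dock2 and Gpsm3 and as 129 for Dok3, and the mice were 8 to 10 weeks old. Females numbered 4 of the Nckap1l knockouts, 8 of their controls, 8 of the Dock2 knockouts and 12 of theirs. Every Gpsm3 and Dok3 mouse was labelled male. Colitis was induced with dextran sulfate sodium (DSS), a polymer that injures the colonic epithelium, given in drinking water for 5 days at 2.8% (Nckap1l), 3% (Dock2 and Gpsm3) or 3.5% (Dok3, with 3% in a first round). Water followed for 5 days with collection on day 10, or for 7 days with collection on day 12 in the Nckap1l line. The study sequenced both DSS-treated and untreated mice, but the labels do not say which library is which, so every group below mixes both in unknown shares.

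Neutrophils are short-lived white blood cells that leave the blood for injured or infected tissue. They are drawn by chemokines, which Cxcr2 reads, and by formylated peptides shed by bacteria and by damaged mitochondria, which the formyl peptide receptors read. The cytosol of a neutrophil is filled with S100a8 and S100a9, whose paired protein, calprotectin, is measured in stool as a sign of gut inflammation.

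Several properties of the libraries bear on what follows. Total counts ranged from 4344988 to 19993833, with a median of 15989625, so 3 counts corresponded to between 0.15 and 0.69 CPM, the count divided by the library total and multiplied by 1000000. The targeted gene was lower in median in each knockout group, at 14.8 against 27.6 CPM for Nckap1l, 22.4 against 35.7 CPM for Dock2, 0.556 against 3.15 CPM for Gpsm3 and 3.30 against 3.67 CPM for Dok3, but the ranges overlapped in all 4 lines. Only Gpsm3 passed the test (log2 fold change -2.06 ± 0.28 SE, adjusted p = 0.0001 by edgeR's quasi-likelihood test). The library labelled Dok3-/- 17 had 38.0 CPM of Dok3, above every wild-type library of that line. It also had the most S100a8 of the 160 libraries, 3094 CPM. Dok3 did not pass the test between genotypes, and whether this label is right was not tested. Genotypes below are those of the labels. The summed level of 10 markers of skin keratinocytes exceeded 50 CPM in 36 libraries, 16 of them in the Nckap1l line. The highest sum was 14209 CPM. Close above 50 CPM were Nckap1l wild type 10 (53.3), Dok3 wild types 14 (77.3) and 17 (50.9) and labelled Dok3-/- 14 (66.2). Gpsm3 wild type 14 (49.9) and Gpsm3-/- 14 (49.3) were just below. Nckap1l wild type 10 was the highest library of its line in the 9 genes other than Ly6g, and leaving out the 36 also left it out. In 5 Dok3 libraries labelled male, the Xist and Y-linked counts were those of females.

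S100a8 and S100a9, the subunits of calprotectin, were counted over a wide range. S100a8 (chr3:90668978-90670035 in mm10, plus strand) had a median of 2.14 CPM over the 160 libraries and a highest value of 3094 CPM. S100a9 (chr3:90692632-90695721, minus strand) had a median of 3.54 and a highest value of 3944 CPM. The genes lie on opposite strands with 22597 bases between their 3' ends. Most libraries held little of either, since S100a8 reached 10 CPM in 45 libraries and S100a9 in 50. Their sequences around the start of transcription, 250 bases before to 50 after, are printed in the direction of transcription because S100a8 and S100a9 had the highest correlation of any pair in the set. Capitals mark matches to the motifs described further on.
S100a8 (chr3:90668821-90669120, plus strand): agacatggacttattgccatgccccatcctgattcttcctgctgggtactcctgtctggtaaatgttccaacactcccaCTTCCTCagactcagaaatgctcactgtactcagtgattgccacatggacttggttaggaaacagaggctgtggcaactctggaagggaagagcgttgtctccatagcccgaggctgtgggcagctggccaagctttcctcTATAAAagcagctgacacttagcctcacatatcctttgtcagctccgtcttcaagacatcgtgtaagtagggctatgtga
S100a9 (chr3:90695672-90695971, minus strand): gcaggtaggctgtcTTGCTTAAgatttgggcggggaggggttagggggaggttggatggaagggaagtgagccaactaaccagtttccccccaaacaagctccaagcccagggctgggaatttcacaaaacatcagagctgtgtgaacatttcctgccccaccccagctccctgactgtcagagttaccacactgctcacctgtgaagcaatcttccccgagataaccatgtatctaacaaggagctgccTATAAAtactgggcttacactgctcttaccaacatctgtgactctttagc

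S100a8 levels were low in most libraries and high in a few of both genotypes in each line. In the Nckap1l line the lowest, median and highest values were 0.117, 7.44 and 234 CPM in labelled knockouts and 0.236, 4.21 and 544 CPM in wild type. In the Dock2 line they were 0, 1.53 and 66.3 CPM in knockouts and 0.0643, 2.06 and 677 CPM in wild type. The highest library was wild type in both lines, and the ranges overlapped. In the Gpsm3 line the values were 0.0590, 1.28 and 356 CPM in knockouts against 0, 0.583 and 334 CPM in wild type. In the Dok3 line they were 0, 0.905 and 3094 CPM in labelled knockouts against 0.0672, 2.51 and 1513 CPM in wild type. The highest library was a labelled knockout in both, the groups again overlapped, and between 4 and 7 libraries of each of the 8 groups reached 10 CPM.

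S100a9 had a lowest, median and highest level of 0.176, 10.9 and 405 CPM in labelled Nckap1l-/- and 0.177, 5.97 and 753 CPM in wild type. Dock2-/- mice had 0.0704, 2.51 and 106 CPM of S100a9 and their controls 0.0588, 3.30 and 859 CPM. S100a9 was highest in a wild-type library of both lines, and the ranges overlapped. S100a9 levels were 0.0590, 2.82 and 465 CPM in Gpsm3-/- and 0, 0.878 and 389 CPM in wild type. Labelled Dok3-/- libraries had S100a9 at 0.0715, 1.56 and 3944 CPM and wild-type ones at 0.0672, 3.43 and 1647 CPM. S100a9 peaked in a labelled knockout in both the Gpsm3 and Dok3 lines, with overlapping ranges.

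The formyl peptide receptors were near the limit of detection in most mice. Fpr1, the high-affinity receptor for formylated peptides (chr17:17876471-17883940, minus strand), had a median of 0.241 CPM, was at 0 in 20 libraries and reached 87.8 CPM in the highest. Fpr2, which also reads lipid and protein ligands (chr17:17887824-17893952, plus strand), had a median of 0.464 CPM, was at 0 in 5 libraries and reached 117 CPM. The genes start 3884 bases apart and are read away from each other. Where both had at least 20 counts, in 37 libraries, the ratio of Fpr2 to Fpr1 in CPM had a median of 1.11 and ranged from 0.436 to 2.16. The other 5 receptors of the family were hardly counted: Fpr-rs3, Fpr-rs6 and Fpr-rs7 were at 0 in all libraries, Fpr-rs4 had a highest value of 0.0730 CPM and Fpr3 one of 0.191 CPM. The annotation of Fpr3 overlaps that of Fpr2, and the genes of this cluster are close in sequence, so a read from one may have been assigned to another or dropped. The start regions of Fpr1 and Fpr2 are shown because the neighbours face away from each other.
Fpr1 (chr17:17883890-17884189, minus strand): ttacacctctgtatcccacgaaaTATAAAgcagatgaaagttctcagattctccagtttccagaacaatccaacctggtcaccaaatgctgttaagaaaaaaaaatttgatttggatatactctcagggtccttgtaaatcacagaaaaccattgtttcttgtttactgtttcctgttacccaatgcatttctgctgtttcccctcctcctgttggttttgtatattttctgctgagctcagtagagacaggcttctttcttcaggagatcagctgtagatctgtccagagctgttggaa
Fpr2 (chr17:17887574-17887873, plus strand): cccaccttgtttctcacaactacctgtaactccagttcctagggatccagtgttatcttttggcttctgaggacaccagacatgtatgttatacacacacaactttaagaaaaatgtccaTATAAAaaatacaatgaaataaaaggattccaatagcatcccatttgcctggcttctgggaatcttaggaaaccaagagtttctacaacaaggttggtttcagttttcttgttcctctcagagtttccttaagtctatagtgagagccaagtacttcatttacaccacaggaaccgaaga

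The ranges of Fpr1 overlapped between the genotypes of every line. The lowest, median and highest levels were 0, 0.762 and 12.0 CPM in Nckap1l-/- and 0, 0.162 and 28.1 CPM in its wild type. They were 0, 0.136 and 2.67 CPM in Dock2-/- and 0, 0.219 and 31.6 CPM in its wild type. Each of these groups held libraries without a single Fpr1 count. The values were 0, 0.227 and 12.7 CPM in Gpsm3-/- against 0, 0.153 and 13.4 CPM in its wild type. Libraries labelled Dok3-/- had 0, 0.225 and 87.8 CPM against 0, 0.258 and 62.2 CPM in wild type. Fpr1 passed the low-count filter only in the Nckap1l line, so it was also compared on the log2(CPM + 0.5) scale with a two-sided permutation test of 100000 resamples. The knockout minus wild-type difference was 0.43 in Nckap1l, -0.21 in Dock2, 0.51 in Gpsm3 and 0.02 in Dok3, with permutation p = 0.488, 0.601, 0.233 and 0.977 and a lowest p of 0.801 after adjustment over the 4 lines. The permutation took no account of sex, and in Nckap1l edgeR's fit with sex, given below, had the opposite sign. Without the libraries with keratinocyte markers the Nckap1l medians turned, to 0.581 CPM in knockouts and 0.993 CPM in wild type. The medians of the other lines kept their order.

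Fpr2 had at least 1 count in all but 5 libraries. Its lowest, median and highest levels were 0.232, 1.06 and 10.3 CPM in Nckap1l-/- and 0, 0.366 and 32.3 CPM in wild type. They were 0.0601, 0.461 and 5.76 CPM in Dock2-/- and 0.122, 0.365 and 22 CPM in wild type. The Gpsm3 line had 0, 0.386 and 16.1 CPM in knockouts and 0, 0.196 and 9.35 CPM in wild type. Libraries labelled Dok3-/- had 0.0715, 0.646 and 117 CPM against 0, 0.708 and 53.7 CPM in wild type. The medians lay between 0.196 and 1.06 CPM, and the ranges overlapped in every line.

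The chemokine and growth factor receptors came next. Cxcr2, which binds the chemokines Cxcl1, Cxcl2 and Cxcl5 (chr1:74153989-74161246, plus strand), had a median of 1.10 CPM and a highest value of 142 CPM. Csf3r, the receptor for the granulocyte growth factor G-CSF (chr4:126024550-126044440, plus strand), was counted in every library, from 0.538 to 285 CPM with a median of 4.65 CPM. Besides Ly6g, Csf3r was the only gene of the set with no library at 0.

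Cxcr2 had a lowest, median and highest level of 0, 2.11 and 50.1 CPM in labelled Nckap1l-/- and 0.236, 1.49 and 70.5 CPM in wild type. Dock2-/- mice had 0, 1.10 and 31.8 CPM of Cxcr2 and their controls 0, 0.972 and 72.3 CPM. Cxcr2 was highest in a wild-type library of both lines, and the ranges overlapped. Cxcr2 levels were 0.0654, 0.455 and 46.2 CPM in Gpsm3-/- and 0.0552, 0.421 and 32.4 CPM in wild type. Labelled Dok3-/- libraries had Cxcr2 at 0, 0.680 and 127 CPM and wild-type ones at 0, 2.31 and 142 CPM. Cxcr2 peaked in a labelled knockout in the Gpsm3 line and a wild-type library in the Dok3 line, with overlapping ranges.

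Csf3r had a lowest, median and highest level of 2.30, 8.16 and 130 CPM in labelled Nckap1l-/- and 2.0, 4.92 and 194 CPM in wild type. Dock2-/- mice had 1.11, 7.77 and 90.5 CPM of Csf3r and their controls 1.38, 5.86 and 162 CPM. Csf3r was highest in a wild-type library of both lines, and the ranges overlapped. Csf3r levels were 0.538, 4.08 and 135 CPM in Gpsm3-/- and 1.16, 3.02 and 58.9 CPM in wild type. Labelled Dok3-/- libraries had Csf3r at 0.572, 4.74 and 285 CPM and wild-type ones at 1.06, 3.49 and 257 CPM. Csf3r peaked in a labelled knockout in both the Gpsm3 and Dok3 lines, with overlapping ranges. The median of Csf3r was higher in knockouts of all 4 lines over all libraries, with overlapping ranges, and no line passed the test. Without the libraries with keratinocyte markers it was lower in knockouts of the Nckap1l line (2.84 against 10.6 CPM) and the Dock2 line (6.68 against 6.93 CPM).

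Trem1 and Clec4e are activating receptors of myeloid cells, the first signalling through the adaptor Tyrobp and the second, which recognises mycobacterial cord factor, through Fcer1g. Trem1 (chr17:48232768-48246924, plus strand) had a median of 0.406 CPM, a highest value of 189 CPM and 9 libraries at 0. Clec4e (chr6:123281789-123289870, minus strand) had a median of 0.640 CPM, a highest value of 303 CPM and 16 libraries at 0. Where both had at least 20 counts, in 54 libraries, the ratio of Clec4e to Trem1 ranged from 0.652 to 2.89 with a median of 1.62. Retnlg, a secreted resistin-like protein of neutrophils (chr16:48872621-48874496, plus strand), had a median of 0.879 and a highest value of 384 CPM.

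Retnlg had a lowest, median and highest level of 0.186, 1.14 and 39.4 CPM in labelled Nckap1l-/- and 0.435, 1.04 and 107 CPM in wild type. Dock2-/- mice had 0.202, 1.39 and 9.74 CPM of Retnlg and their controls 0, 1.09 and 181 CPM. Retnlg was highest in a wild-type library of both lines, and the ranges overlapped. Retnlg levels were 0.179, 0.739 and 54.1 CPM in Gpsm3-/- and 0, 0.657 and 103 CPM in wild type. Labelled Dok3-/- libraries had Retnlg at 0.113, 0.853 and 384 CPM and wild-type ones at 0.0812, 0.873 and 384 CPM. Retnlg peaked in a wild-type library in both the Gpsm3 and Dok3 lines, with overlapping ranges.

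Trem1 had a lowest, median and highest level of 0.0661, 0.456 and 29.8 CPM in labelled Nckap1l-/- and 0.177, 0.451 and 69.5 CPM in wild type. Dock2-/- mice had 0, 0.485 and 9.06 CPM of Trem1 and their controls 0, 0.300 and 63.7 CPM. Trem1 was highest in a wild-type library of both lines, and the ranges overlapped. Trem1 levels were 0, 0.202 and 33.8 CPM in Gpsm3-/- and 0.0609, 0.262 and 34.5 CPM in wild type. Labelled Dok3-/- libraries had Trem1 at 0, 0.477 and 189 CPM and wild-type ones at 0, 0.533 and 113 CPM. Trem1 peaked in a wild-type library in the Gpsm3 line and a labelled knockout in the Dok3 line, with overlapping ranges.

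Clec4e had a lowest, median and highest level of 0, 1.44 and 45.7 CPM in labelled Nckap1l-/- and 0, 1.08 and 162 CPM in wild type. Dock2-/- mice had 0, 0.641 and 11.7 CPM of Clec4e and their controls 0, 0.523 and 104 CPM. Clec4e was highest in a wild-type library of both lines, and the ranges overlapped. Clec4e levels were 0, 0.400 and 75.2 CPM in Gpsm3-/- and 0, 0.151 and 46.0 CPM in wild type. Labelled Dok3-/- libraries had Clec4e at 0, 0.460 and 303 CPM and wild-type ones at 0.0644, 0.769 and 244 CPM. Clec4e peaked in a labelled knockout in both the Gpsm3 and Dok3 lines, with overlapping ranges.

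Ly6g stood apart from the other 9 genes. It encodes the surface antigen that is the usual marker of mouse neutrophils (chr15:75155240-75159126, plus strand), and it was present in every library, from 13.8 to 156 CPM with a median of 48.9 CPM. Relative to exon length, its median of 51.9 CPM per kilobase was followed by 6.78 for S100a9, 3.08 for S100a8, 1.48 for Retnlg and 1.29 for Csf3r, with the other 5 genes between 0.129 and 0.361 CPM per kilobase. The 16 libraries with the highest value of a gene held 58.9% to 84.8% of its summed CPM for the 9 others and 18.9% for Ly6g. Its level in the 20 libraries without an Fpr1 count ran from 13.8 to 97.5 CPM with a median of 37.0 CPM. Libraries with no Fpr1 count thus still had Ly6g counts. Ly6g belongs to a cluster of similar genes whose reads may be shared. Its start region is shown for comparison with the pairs above.
Ly6g (chr15:75155011-75155310, plus strand): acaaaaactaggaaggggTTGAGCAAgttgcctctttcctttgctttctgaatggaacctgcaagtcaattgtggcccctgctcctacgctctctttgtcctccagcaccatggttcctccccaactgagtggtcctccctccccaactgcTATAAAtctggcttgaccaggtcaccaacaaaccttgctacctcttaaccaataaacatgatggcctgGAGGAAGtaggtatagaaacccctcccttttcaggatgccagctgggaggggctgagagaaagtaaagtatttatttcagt

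**Figure D1:**
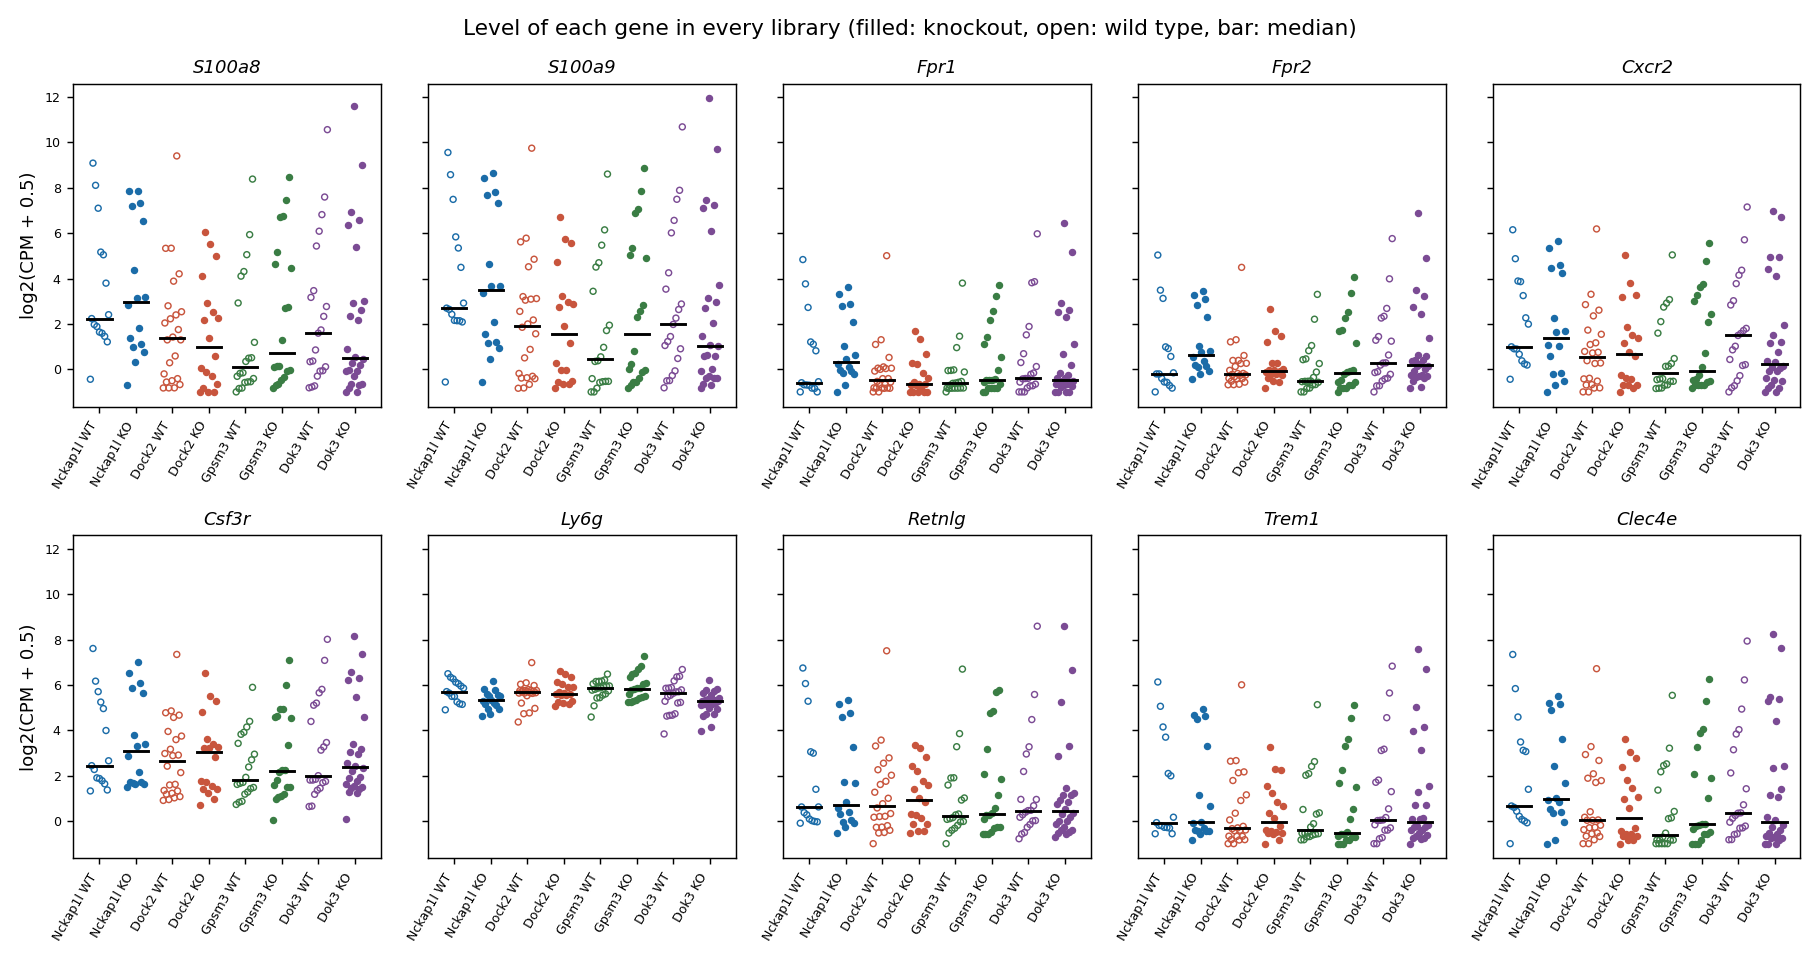
Levels of the 10 genes, as log2(CPM + 0.5) on the vertical axes, in each of the 160 libraries by line and genotype (filled, labelled knockout, open, wild type, bar, group median). In 9 panels most libraries lie near the bottom and a few reach far above them in both genotypes, whereas the Ly6g panel is a narrow band between 13.8 and 156 CPM.

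Ly6g had group medians between 38.6 and 57.8 CPM. Its lowest, median and highest levels were 23.9, 39.6 and 70.9 CPM in Nckap1l-/- against 29.4, 51.6 and 89.6 CPM in wild type. They were 15.3, 38.6 and 72.7 CPM in libraries labelled Dok3-/- against 13.8, 49.0 and 102 CPM in wild type. Knockouts were thus lower in median in both lines with overlapping ranges, while in the Dock2 line the levels were 33.1, 48.7 and 97.5 CPM against 20.1, 51.5 and 126 CPM, and in the Gpsm3 line 37.4, 56.6 and 156 CPM against 23.5, 57.8 and 88.5 CPM. The log2 fold change was -0.52 ± 0.16 in Nckap1l, with an unadjusted p of 0.0029 and an adjusted p of 0.83 by edgeR, and -0.36 ± 0.16 in Dok3, with an unadjusted p of 0.0347 and an adjusted p of 1.0. Neither passed the threshold.

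The 9 genes other than Ly6g rose and fell together from mouse to mouse. After the mean of each of the 8 groups was subtracted, the 36 pairs of them had a median Pearson r of 0.945 over the 160 libraries, from 0.898 for Csf3r and Retnlg to 0.994 for S100a8 and S100a9, and a median Spearman rho of 0.861. The points share library and depth, and r describes these libraries only. Within the lines, with both genotypes pooled and no group mean subtracted, the median r of the 36 pairs was 0.942 in Nckap1l, 0.918 in Dock2, 0.950 in Gpsm3 and 0.948 in Dok3. Ly6g had r between 0.179 and 0.256 with the others. The ratio of S100a9 to S100a8 held to a median of 1.43 over the 90 libraries with at least 20 counts of each, with a range of 0.509 to 2.42.

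**Figure D2:**
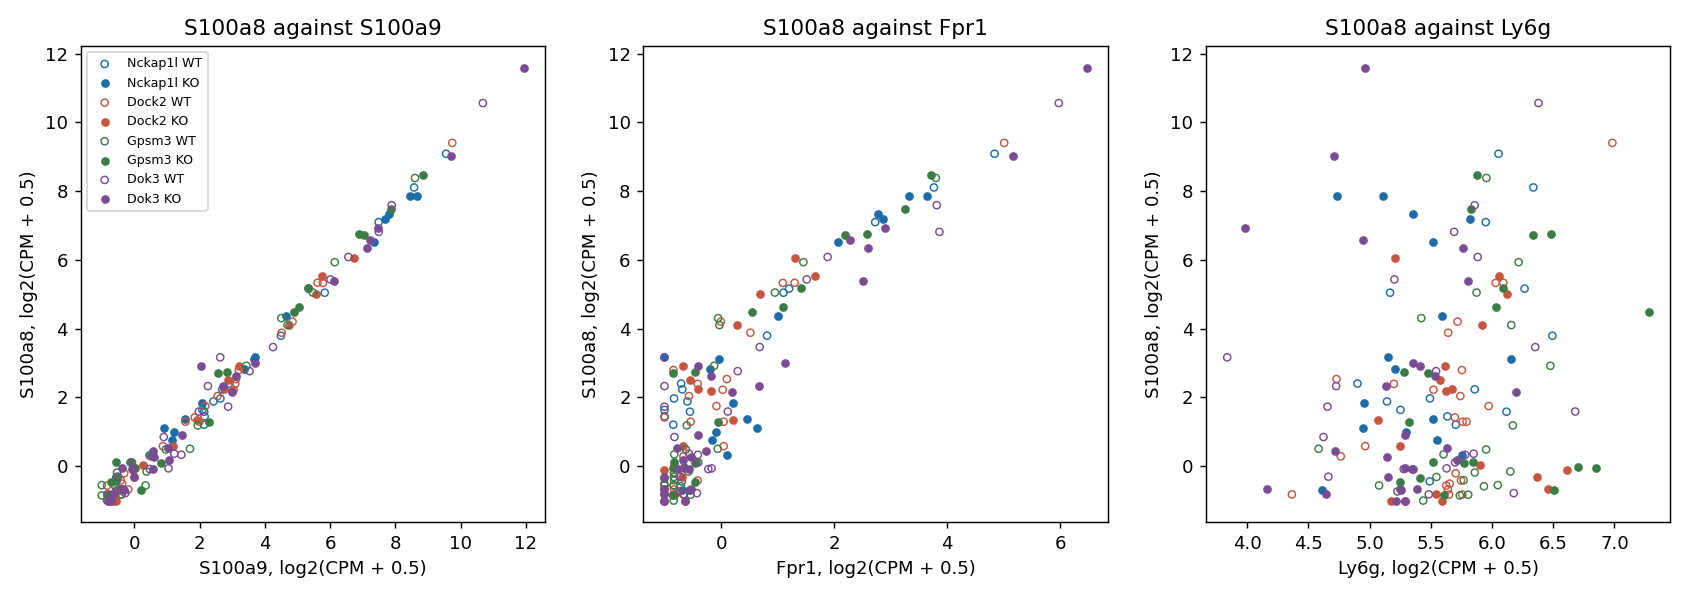
S100a8 against S100a9, Fpr1 and Ly6g in the 160 libraries, both axes as log2(CPM + 0.5), colour by line and filled points for labelled knockouts. The S100a8 and S100a9 points fall on a line (r = 0.994 with group means subtracted), Fpr1 follows S100a8 once it is counted, and Ly6g forms a cloud.

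Genes most like Fpr1 were ranked by Pearson r over the same 160 libraries among 19848 genes. The first 15 were Gm5483 (0.970), Fpr2 (0.968), Mmp8 and Stfa2l1 (both 0.966), Tarm1 (0.960), Trem1 (0.955), Cxcl2 and Trem3 (both 0.951), Mcemp1 (0.948), Clec4e (0.947), Acod1 and Retnlg (both 0.945), Osm (0.944), and Ccl3 and Nlrp3 (both 0.943). Mmp8 is the collagenase stored in neutrophil granules, Cxcl2 a chemokine for neutrophils, and Nlrp3 an inflammasome sensor. S100a8 stood at rank 37, S100a9 at 53, Cxcr2 at 62, Csf3r at 66 and Ly6g at 5614. Over all genes the median r with Fpr1 was -0.03, and 867 genes (4.37%) had r over 0.7.

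Other genes of the pathway, taken from lists, correlated with Fpr1 to different degrees. Of 20 neutrophil granule and surface genes, 14 passed the filter, with a median r of 0.819 with Fpr1 and 9 over 0.7. The most abundant were Mxd1, a transcriptional repressor, with a median of 785 CPM and r = -0.29, the surface gene Cd177, with 80.3 CPM and r = 0.38, and Ltf, which encodes lactoferrin, with 0.918 CPM and r = 0.49. The 6 that did not pass were Mpo, Elane, Prtn3, Ctsg, Camp and Cxcr1, all with medians of at most 0.300 CPM. Of 10 ligands, 9 passed, with a median r of 0.850. Anxa1, a ligand of Fpr2, had a median of 233 CPM and r = 0.59, the peptidoglycan recognition protein Pglyrp1, a ligand of Trem1, 109 CPM and 0.57, and the acute phase protein Saa3 0.801 CPM and 0.92, with a highest level of 5005 CPM. The 10 partners and signalling adaptors had a median r of 0.774, led in abundance by Gnai2, the G protein subunit through which formyl peptide receptors signal (222 CPM, r = 0.84), the kinase Syk (121 CPM, r = 0.69) and the lipopolysaccharide receptor Tlr4 (64.4 CPM, r = 0.47). Of 18 members of the same gene families, 17 passed, with a median r of 0.634, and the most abundant were S100a6 (732 CPM, r = -0.27), S100a10 (233 CPM, r = 0.44) and S100a11 (58.5 CPM, r = 0.81).

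Markers of other cell types moved with the set to different degrees. The 8 macrophage markers, all detected, summed to between 104 and 1518 CPM per library, with group medians from 330 to 440 CPM, and their sum had r between 0.772 and 0.882 with the 9 genes and 0.102 with Ly6g. Fpr1, Fpr2, Trem1 and Clec4e are also made by monocytes and macrophages, and the part of these cells in the levels was not tested. The sum of 8 colon epithelium markers had r between -0.626 and -0.508 with the 9 genes and 0.239 with Ly6g. That of 4 monocyte markers had r between 0.501 and 0.633 with the 9 genes and 0.673 with Ly6g. For 4 T cell markers r was between 0.588 and 0.737 with the 9 genes and 0.229 with Ly6g. In bulk tissue a change in the number of cells of a type and a change in RNA per cell cannot be told apart. In the 36 libraries with keratinocyte markers over 50 CPM, S100a8, which keratinocytes also make, had a median of 9.57 CPM against 0.826 CPM in the other 124, Cxcr2 4.07 against 0.596 CPM, Fpr1 0.481 against 0.210 CPM and Ly6g 41.3 against 49.8 CPM. The part of skin in these levels was not tested. The 3 libraries with the most S100a8 were outside those 36, and without the 36 the median r of the 36 pairs was 0.948.

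The start regions of the 10 genes, from RefSeq on GRCm38.p6, were searched on both strands for the letters of 4 motifs. TATAAA was found in 6 of the 10, S100a8, S100a9, Fpr1, Fpr2, Ly6g and Clec4e, and in 13.6% of 32851 start regions of the same length. TTGCNNAA, a form bound by C/EBP factors of the granulocyte lineage, was found in 4 (S100a9, Ly6g, Retnlg and Clec4e) and in 10.8% of all. GAGGAAG, a core of PU.1 sites, was found in 3 (S100a8, Csf3r and Ly6g) and in 13.6% of all, and TGANTCA, the AP-1 form, in none of the 10 and in 7.81% of all. None of these strings contains another, and the matches describe these windows only. Ly6g has 2 overlapping start regions and was counted by the first, the one printed above. TTGCNNAA was in the first of them only, and the shares of all are over single start regions.

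Knockout and wild type were compared in each line with all DSS-treated and untreated mice together. In the Nckap1l line all 10 genes passed the low-count filter and 0 were called by edgeR's quasi-likelihood test at an adjusted p under 0.05, against 0.0% of 17947 genes. The log2 fold changes, knockout minus wild type, lay between -0.73 for Retnlg and 0.05 for Cxcr2, with a median of -0.22 beside 0.01 over all genes. S100a8 had -0.20 ± 1.08 and Fpr1 -0.21 ± 0.92, and Ly6g alone was under an unadjusted p of 0.05, which 4.5% of all genes were. The direction of the set turned on a few libraries and on the model. Without the 16 libraries with keratinocyte markers, wild type 10 among them at 53.3 CPM, all 10 genes were below 0 (median -1.74). Without Nckap1l wild type 10, 8 of the 10 were above 0 and the median was 0.62, and with the run of sample numbers as a covariate it was 0.52. No gene of the set was called by edgeR in these 3 fits, whose shares of all genes are not given here. limma-voom called 0 of the 10 (0.0% of all genes) and DESeq2 called 0 (0.21% of all). At an unadjusted p under 0.05 each had 1 of the 10, against 3.94% and 5.84% of all genes.

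In the Dock2 line 8 genes passed the filter, without Fpr1 and Fpr2, and 0 were called, against 0.034% of 17648 genes. None of the 8 reached an unadjusted p of 0.05 by edgeR, against 5.1% of all genes, nor by limma-voom (4.07%) or DESeq2 (5.78%). The latter also called 0 at the adjusted threshold, against 0.0% and 0.366% of all genes. Retnlg had the lowest value at -1.34 ± 0.77 (unadjusted p = 0.0896, adjusted p = 1.0 by edgeR), with a median of 1.39 CPM in knockouts and 1.09 CPM in wild type. S100a8 had -0.55 ± 1.06, and its direction turned on the library Dock2 wild type 13, which was highest in all 9 genes other than Ly6g, held between 25.4% and 67.0% of their summed CPM in the line and was the shallowest of the line with 9863590 counts. Without it S100a8 had 0.89 and all 8 genes were above 0. Without Dock2-/- 13 the median of the 8 was -1.73, and 5 had an unadjusted p under 0.05, against 10.2% of all genes. None of the 8 was then called (lowest adjusted p = 0.329 by edgeR), against 0.22% of all genes.

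In the Gpsm3 line 6 genes passed, without Fpr1, Fpr2, Trem1 and Clec4e, and 0 were called, against 0.00569% of 17560 genes. All 6 were above 0, between 0.25 ± 0.17 for Ly6g and 1.07 ± 0.59 for Csf3r, with a median of 0.89 beside 0.00 over all genes. Fitted without the filter, the other 4 had 0.90 for Fpr1, 1.12 for Fpr2, 0.65 for Trem1 and 1.16 for Clec4e. No gene of the set reached an unadjusted p of 0.05 by edgeR, against 4.86% of all genes, nor by limma-voom (2.91%) or DESeq2 (5.88%). The latter also called 0 at the adjusted threshold, against 0.00569% and 0.103% of all genes. The median was 0.24 without Gpsm3-/- 14 and 1.99 without Gpsm3 wild type 14. In the latter fit 5 of the 6 had an unadjusted p under 0.05, against 8.77% of all genes, and 0 were called (lowest adjusted p = 0.528 by edgeR), against 0.0057%.

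In the Dok3 line 9 genes passed, without Fpr1, and 0 were called, against 0.0% of 17612 genes, with 1, Ly6g, at an unadjusted p under 0.05, which 2.19% of genes had. The log2 fold changes lay between -0.36 for Ly6g and 0.97 ± 1.13 for S100a9, with a median of 0.45. The library labelled Dok3-/- 17, which had the high Dok3 level, was highest in 6 of the 9 genes other than Ly6g and held 28.6% to 52.0% of their summed CPM in the line. Without it all 9 tested genes were below 0, with a median of -0.60, and without Dok3 wild type 18 the median was 1.77. limma-voom, which averages logarithms, gave a median of -0.28 and called 0 (0.0% of all genes), with 0 at an unadjusted p under 0.05 (1.75% of all). DESeq2 called 0 (0.0534% of all), with 1 at an unadjusted p under 0.05 (3.39% of all).

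**Figure D3:**
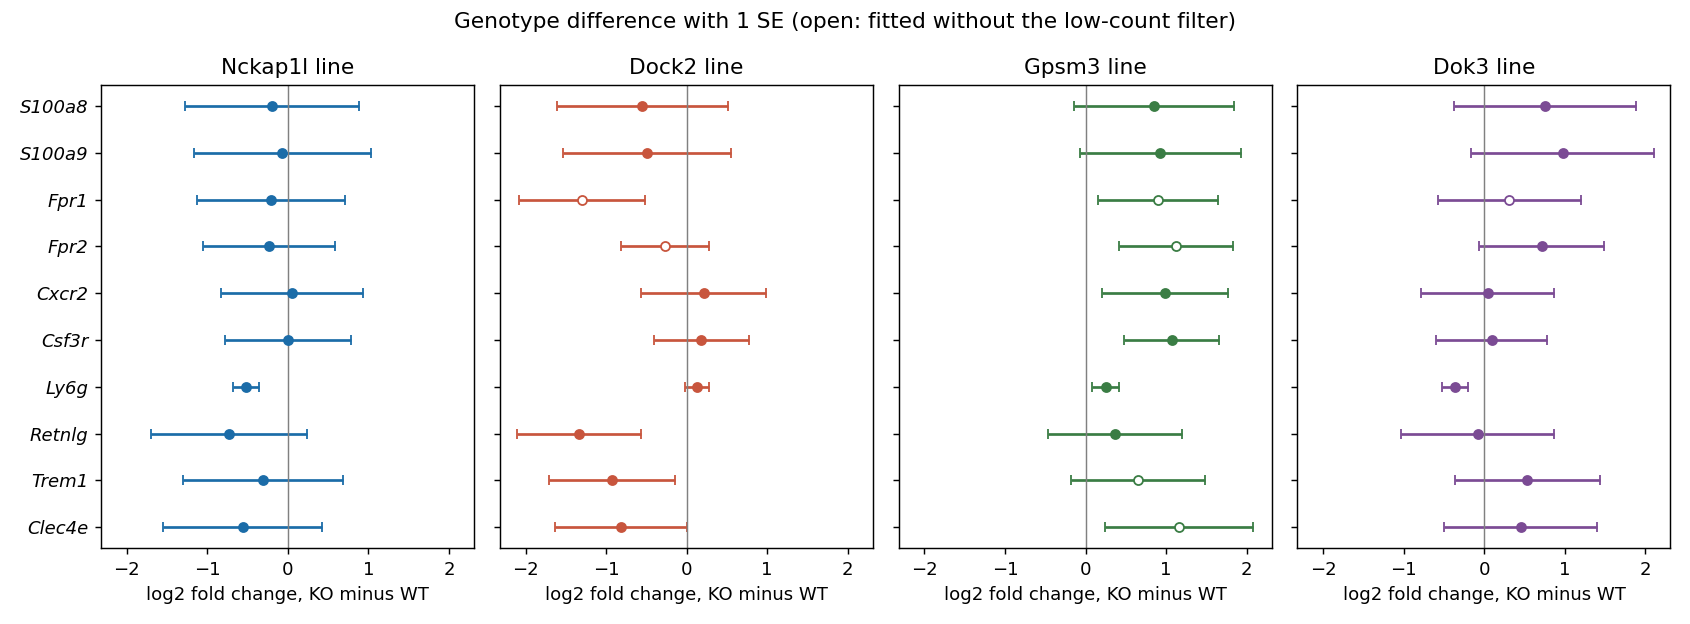
Log2 fold change, labelled knockout minus wild type, of the 10 genes in each line with bars of 1 SE from edgeR (open points, genes below the low-count filter, fitted without it). The bars of Ly6g are the shortest in every line, no point passed an adjusted p of 0.05, and the 10 points of the Gpsm3 line are all above 0.

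The spread between mice set the width of these intervals. The biological coefficient of variation, the square root of edgeR's dispersion, was between 1.18 and 2.34 for those of the 9 genes that passed the filter in a line, among the top 2.58% of the genes tested there, where the median gene had 0.16 to 0.235. That of Ly6g was 0.30 to 0.39. Differences of the genotype effect between lines were tested in a joint fit, in which 0 of the 10 genes passed in any of 6 contrasts by edgeR, and Ly6g was the only one at an unadjusted p under 0.05. The lowest adjusted p was 0.144 by edgeR, for Ly6g in Gpsm3 minus Nckap1l (0.78 ± 0.25, unadjusted p = 0.00245), where 0.892% of 19849 genes were called and 8.48% had an unadjusted p under 0.05. The other contrasts with an unadjusted p under 0.05 for Ly6g were Dock2 minus Nckap1l (0.0151% of genes called, 3.04% unadjusted), Dok3 minus Dock2 (0.0504% and 1.92%) and Dok3 minus Gpsm3 (0.161% and 7.4%). Those without were Dok3 minus Nckap1l (0.141% and 4.62%) and Gpsm3 minus Dock2 (0.368% and 4.82%).

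Sample numbers in the labels fall into separate runs, 3 in the Nckap1l line and 2 in the Gpsm3 and Dok3 lines, whose meaning is not stated. In the Nckap1l line the fitted genotype difference was above 0 for 9 of the 10 genes in run 1 and below 0 for all 10 in run 2. In the Dok3 line it was above 0 for 5 of the 6 genes tested in run 1, where Clec4e, Fpr1, Fpr2 and Trem1 were not tested, and below 0 for the 9 tested in run 2. In run 1 of the Nckap1l line S100a8 had a lowest, median and highest level of 6.66, 56.1 and 234 CPM in 6 knockouts against 2.23, 3.81 and 137 CPM in 8 wild-type mice, and 6 of 10 genes were higher at an unadjusted p under 0.05, against 6.5% of all genes in that direction. In run 2 the S100a8 levels were 8.23, 162, 147, 0.117 and 1.49 CPM in the 5 knockouts and 35.4, 544, 276 and 2.50 CPM in the 4 wild-type mice. Both groups of run 2 had low and high libraries. In run 3 they were 1.19, 0.755, 3.04, 1.65 and 2.11 CPM in 5 knockouts and 1.81, 0.236 and 13.4 CPM in 3 wild-type mice. No gene of the set was called by edgeR within runs 1, 2 and 3, against 0.0109%, 0.0% and 0.145% of all genes. The change of the genotype difference from run 1 to run 2 was -4.39 ± 1.88 for S100a8 and -4.63 ± 1.70 for Fpr1, and 8 of 10 genes had an unadjusted p under 0.05, against 9.56% of all genes, with a lowest adjusted p of 0.506 by edgeR and 0 called (0.0% of all genes). All 6 knockouts and 7 of the 8 wild-type libraries of run 1 had keratinocyte markers over 50 CPM.

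In run 1 of the Dok3 line the S100a8 median was 0.944 CPM with a highest of 3094 CPM in 17 labelled knockouts against 0.786 and 112 CPM in 13 wild-type mice. In run 2 the median was 0.710 CPM with a highest of 41.7 CPM in 9 labelled knockouts against 5.65 and 1513 CPM in 8 wild-type mice. No gene of the set was called by edgeR within run 1 (0.0% of all genes) or run 2 (0.0963%). The library with the most S100a8 was a labelled knockout in run 1 and wild type in run 2. The change from run 1 to run 2 was -8.70 ± 2.47 for S100a8 and -8.86 ± 2.02 for Retnlg, and 7 of 9 genes had an unadjusted p under 0.05, against 6.33% of all genes, but 0 were called (0.0% of all genes), with a lowest adjusted p of 0.166 by edgeR. limma-voom had 0 of 9 at an unadjusted p under 0.05, against 5.09% of all genes. The labels do not tie the runs to DSS rounds or doses, and run, dose and treated share cannot be told apart.

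**Figure D4:**
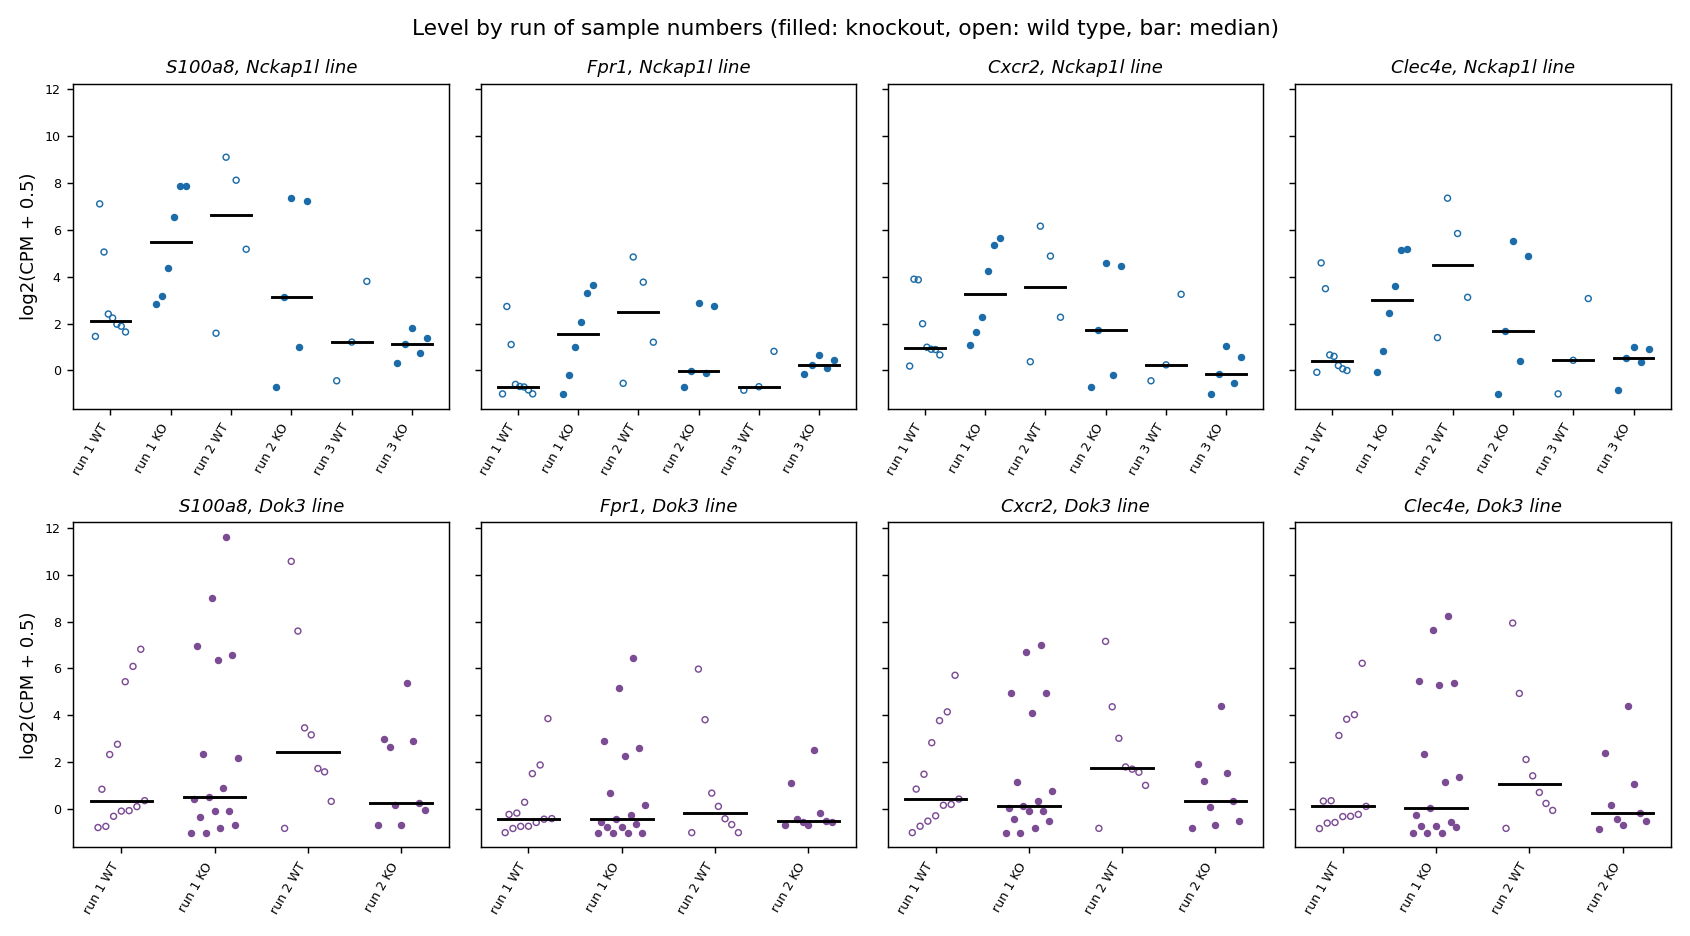
S100a8, Fpr1, Cxcr2 and Clec4e, as log2(CPM + 0.5), by run of sample numbers and genotype in the Nckap1l line (top) and the Dok3 line (bottom), with bars at medians. In the Nckap1l line the S100a8 median is higher in knockouts in run 1 (56.1 against 3.81 CPM) and higher in wild type in run 2 (155 against 8.23 CPM).

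In the Dock2 line the set was lower in females than in males in every fitted value, but no gene passed the adjusted threshold. The S100a8 median was 0.570 CPM in 20 females, with a highest value of 66.3 CPM, and 3.83 CPM in 22 males, with a highest value of 677 CPM. Retnlg had medians of 0.710 and 1.39 CPM and Clec4e 0.290 and 0.724 CPM, and the ranges overlapped. With genotype in the model, all 8 tested genes were below 0, female minus male, between -2.64 ± 1.06 for S100a8 and -0.38 ± 0.15 for Ly6g, and 5 had an unadjusted p under 0.05, against 25.6% of genes. After adjustment 0 were called, against 9.75% of genes, with a lowest adjusted p of 0.0903 for Retnlg by edgeR, and limma-voom called 0 (9.07% of all genes), with 2 at an unadjusted p under 0.05 (24.4% of all).

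The count turned on single libraries. Without Dock2-/- 13, the female with the most S100a8 (66.3 CPM), 7 of the 8 genes were called lower in females, against 7.41% of all genes, with -4.03 ± 0.91 for S100a8 (adjusted p = 0.00368 by edgeR). Without the 5 libraries that had keratinocyte markers over 50 CPM, Dock2-/- 13 among them, 7 were called lower, against 9.85% of all genes. Without Dock2 wild type 13, the male with the most S100a8 (677 CPM), 0 were called, against 9.87% of all genes, and 1 had an unadjusted p under 0.05, against 25.1%. S100a8 then had -1.06 ± 0.76 (adjusted p = 0.402 by edgeR). Ly6g was not called in any of these fits. The keratinocyte markers themselves had a median log2 fold change of 1.36, female minus male, with 0 of 8 called. In the Nckap1l line 0 of 10 genes were called between the sexes, against 0.178% of genes, with S100a8 at -0.23 ± 1.11, and 1 gene, Ly6g, at an unadjusted p under 0.05, against 15.7%. The change of the genotype difference with sex was called by edgeR for 0 genes of the set in either line, against 0.198% of all genes in Dock2 and 0.0% in Nckap1l. At an unadjusted p under 0.05 there were 2 of 8 in Dock2 (S100a8 and S100a9), against 4.48%, and 1 of 10 in Nckap1l (Fpr1), against 3.29%.

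**Figure D5:**
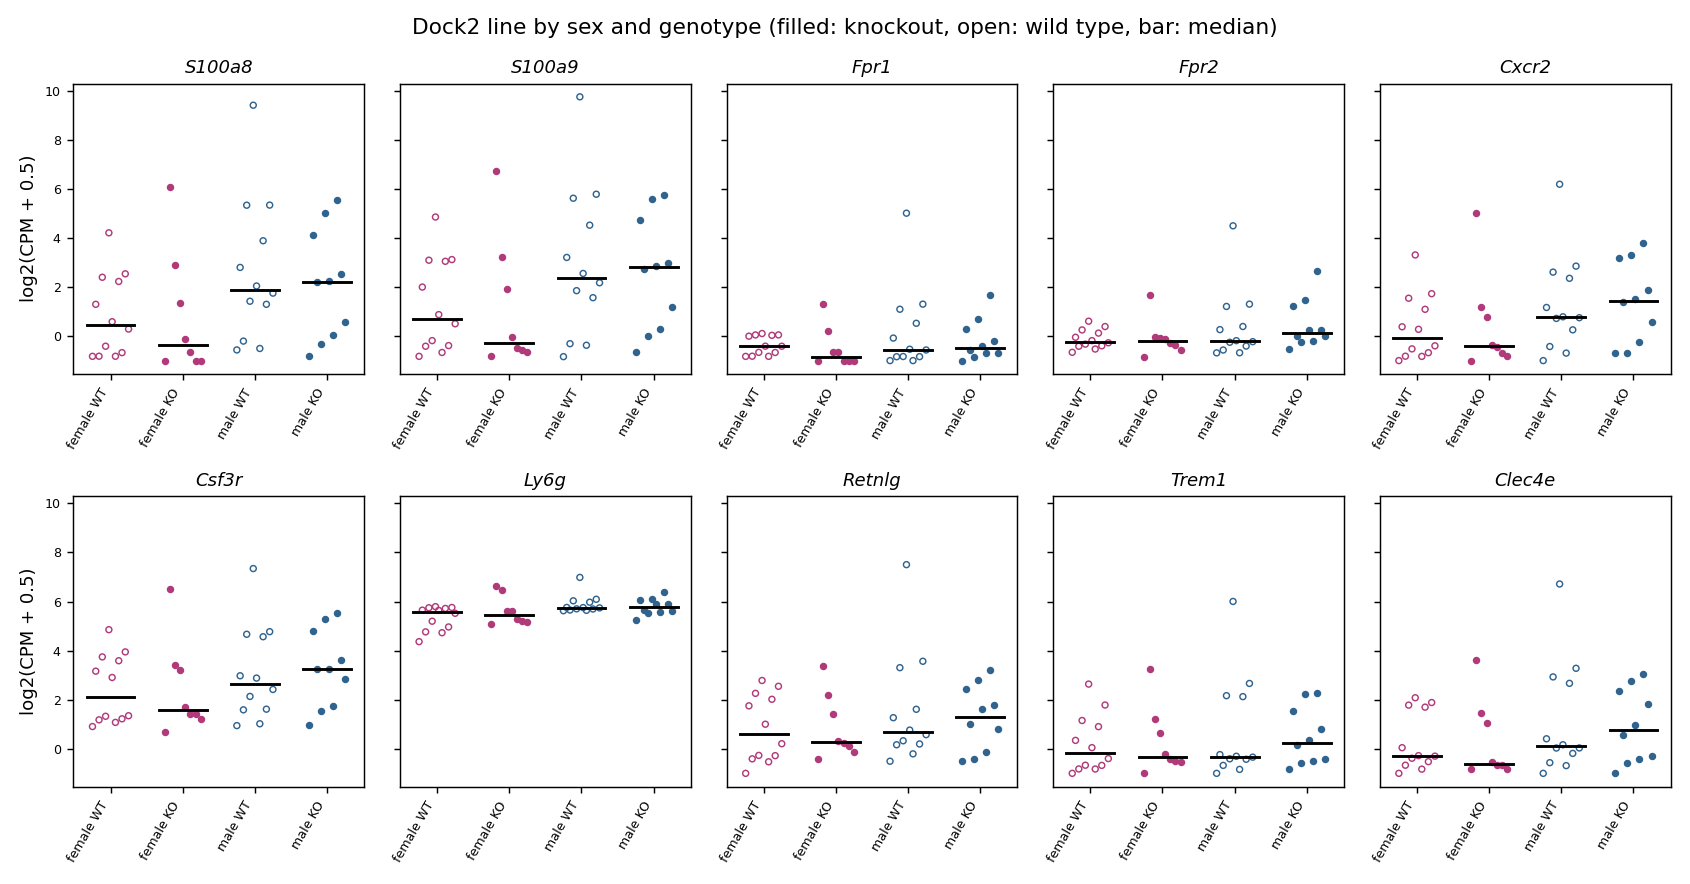
Levels of the 10 genes in the Dock2 line by sex and genotype, as log2(CPM + 0.5), with bars at medians. Both male groups have higher S100a8 medians (3.24 and 4.16 CPM) than both female groups (0.859 and 0.279 CPM), and the single highest point of all 10 panels is the male wild-type library 13.

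Wild-type mice of the 4 lines were set side by side because strain, DSS dose and day of collection differed between lines. Of the 4 wild-type medians over all libraries, the highest was that of Nckap1l for S100a8, S100a9 and Clec4e. It was that of Dok3 for Fpr1, Fpr2, Cxcr2 and Trem1, of Dock2 for Csf3r and Retnlg and of Gpsm3 for Ly6g. Without the libraries with keratinocyte markers over 50 CPM, Nckap1l, with 6 wild types left, had the highest median of every gene. Fpr1 then had 0.993 CPM in Nckap1l against 0.255 CPM in Dok3, and Ly6g 65.1 CPM against 58.1 CPM in Gpsm3. In the joint fit, 4 genes were called in Dok3 minus Gpsm3: Fpr2 (2.13 ± 0.76, adjusted p = 0.0258), Csf3r (1.80 ± 0.68, adjusted p = 0.038), Fpr1 (2.25 ± 0.86, adjusted p = 0.0388) and Clec4e (2.39 ± 0.96, adjusted p = 0.0484), all by edgeR. The 4 of 10 stand beside 28.0% of 19849 genes called in that contrast, and 16.7% called higher. Keratinocyte markers were over 50 CPM in 7 of the 21 Dok3 wild-type libraries and 1 of the 20 of Gpsm3, and without all such libraries only Fpr2 was called by edgeR, against 14.6% of genes. Of other markers in the same contrast, 2 of 4 T cell genes and 1 of 10 keratinocyte genes (list median 1.73) were called higher and 3 of 8 colon epithelium genes lower, and their part in the difference was not tested. By edgeR the other 5 contrasts called 0 of the 10, against 7.63% of genes in Dock2 minus Nckap1l, 12.0% in Gpsm3 minus Nckap1l, 8.85% in Dok3 minus Nckap1l, 0.267% in Gpsm3 minus Dock2 and 13.7% in Dok3 minus Dock2. At an unadjusted p under 0.05 they had 0, 6, 1, 0 and 0 genes of the set in the same order, against 30.4%, 33.4%, 22%, 4.97% and 28.3% of all genes. Dock2 and Gpsm3 share strain, a dose of 3% and day 10, while only Dock2 has mice labelled female, and the treated shares are not known. In the other contrasts those of strain, dose, day, run and treated share that differ cannot be told apart.

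Single wild-type libraries decided these counts as well. Without Gpsm3 wild type 14, the library with 334 CPM of S100a8, 9 genes were called higher in Dok3 minus Gpsm3, against 18.5% of genes, and 9 were called lower in Gpsm3 minus Nckap1l, against 10.8%. Without Dock2 wild type 13, 8 genes were called lower in Dock2 minus Nckap1l, against 8.61%, and 8 higher in Dok3 minus Dock2, against 9.76%. Without Dok3 wild type 18, the library with 1513 CPM of S100a8, 0 passed in Dok3 minus Gpsm3 by edgeR at either threshold. Of all genes 24.9% passed the adjusted one, and so at least that share the unadjusted one. Only Fpr2 was called elsewhere, lower in Gpsm3 minus Nckap1l (-2.22, adjusted p = 0.0483 by edgeR), against 7.28%. limma-voom called 0 of the 10 in Dok3 minus Gpsm3, against 21.4% of all genes. It had 2 of the 10 at an unadjusted p under 0.05, against at least those 21.4% of all genes.

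The wider lists gave as few calls between genotypes. No gene of the granule and surface list, the ligands, the adaptors or the families was called by edgeR in any line. The following genes were picked by their values. At an unadjusted p under 0.05, the granule and surface genes Ltf (1.67 ± 0.76) and Fcgr4 (0.96 ± 0.45) were above 0 in Gpsm3, each with an adjusted p of 0.936 by edgeR, and no gene of that list reached it in the other lines. Among the ligands only Cxcl1 was, in Gpsm3 (1.33 ± 0.55), and among the adaptors only Tlr4, in Dock2 (0.15 ± 0.07). In the families Retnlb, a goblet cell relative of Retnlg, had 2.38 ± 1.05 in Nckap1l, 1.29 ± 0.60 in Dock2, 1.63 ± 0.71 in Gpsm3 and 3.14 ± 0.96 in Dok3, each at an unadjusted p under 0.05 and with an adjusted p between 0.936 and 1.0 by edgeR. Retn and Retnla in Nckap1l and Ly6c2 and Retnla in Dock2 were the others of the families below that unadjusted p.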

How the data were processed

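Total RNA from the distal 2 cm of mouse colon was sequenced after removal of ribosomal RNA. Per the authors' methods, reads were aligned to mm10 with STAR and assigned to genes with featureCounts. The deposited values are raw counts per gene, and tool versions, the strand setting and the treatment of multi-mapping reads are not given in the sources used here.

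Counts of 160 libraries were joined on 39179 gene identifiers, of which 96.2% had a symbol in the reference table. CPM is the count over the library total times 1000000, and 3 counts correspond to 0.15 to 0.69 CPM. Groups came from the labels. Each line was fitted in R 4.3.3 with edgeR 4.0.16 (TMM factors, filterByExpr by genotype, quasi-likelihood F-test, sex as a covariate in Nckap1l and Dock2), with Benjamini-Hochberg adjustment over all genes and a threshold of 0.05. The wild-type and between-line contrasts came from 1 fit of all 8 groups. SE is the log2 fold change over the square root of F. limma 3.58.1 (voom, the method of the study) and DESeq2 1.42.0 were alternatives, with other normalisation and filters, single libraries left out, skin-marker libraries left out, males only, and fits within runs of sample numbers. The filter by genotype replaced one set by the design matrix after both had been seen, and the latter is kept as an alternative. The fitting code was tested on simulated data. No pair of replicates agreed within sampling noise (lowest chi-square per degree of freedom 4.01). Where nothing in the labels gives the mouse's treatment, p-values measure the spread over treated and untreated mice together.

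The 10 genes, the lists and the comparisons were chosen with earlier results of these data known. Named genes were the 10 members, the 15 genes most correlated with Fpr1, the 3 genes of each pathway list with the highest mean CPM, and list genes at an adjusted p under 0.05 in a genotype comparison. List genes named at an unadjusted p under 0.05 were chosen after their values were seen. Correlations used log2(CPM + 0.5), with group means subtracted over the 160 libraries and not subtracted within single lines. Start regions came from RefSeq tables on GRCm38.p6. Figures were drawn with matplotlib 3.10.9 under Python 3.11.15. Some list genes are not reported here.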

Additional observations from a re-analysis of the deposited data

Results flagged for a closer look

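Single libraries stood far from the others of their sex, genotype and run by Dixon's test at the 95% level in 15 of 120 tests (12.5%). Chance gives about 1 in 20, and the genes are correlated, so the tests are not independent. Only the 12 groups of sex, genotype and run with 4 to 10 libraries were tested. Dock2 wild type 13, in a group of 12, and the library labelled Dok3-/- 17, in a group of 17, were therefore not tested. Gpsm3 wild type 14 was the far library for 9 genes among the 10 wild-type libraries of run 2, with 333.7 CPM of S100a8, 389.0 of S100a9, 13.4 of Fpr1, 9.353 of Fpr2, 32.41 of Cxcr2, 58.92 of Csf3r, 103.2 of Retnlg, 34.51 of Trem1 and 46.01 of Clec4e. Among the same libraries Gpsm3 wild type 17 was far below the rest in Ly6g, at 23.48 CPM. Dock2-/- 13 was far above the other 7 knockout females in Fpr2 (2.731 CPM), Cxcr2 (31.84 CPM) and Csf3r (90.49 CPM), and it had 12116 CPM of summed keratinocyte markers. The library labelled Dok3-/- 19 had 10.87 CPM of Fpr2, far above the other 8 of run 2, and Nckap1l wild type 8 had 8.214 CPM of Fpr2, far above the other 5 wild-type females of run 1.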

How the results depend on the processing

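Counted over results and alternatives, 76 values for whole comparisons kept their direction and side of the threshold, 5 counts of calls rose, 5 fell and 1 correlation moved. For single genes 613 kept both, 20 newly passed, 16 no longer passed and 102 turned. Between genotypes no gene of the set was called under any alternative. Wild-type calls over the 6 contrasts went from 4 to 0 with limma-voom, 1 without a filter, 2 in males only, 1 without skin-marker libraries and 1 to 20 with 1 library left out. The main fit called 0.267% to 28.0% of all genes in these contrasts. The summed counts are not set against all genes and are no result about the set. Calls between the sexes in Dock2 went from 0 (9.75% of all genes) to 7 without skin-marker libraries, against 9.85% of all genes called lower. They were 0 without wild type 13 (9.87% of all genes) and 7 without knockout 13 (7.41% called lower). With the filter set by the design there was 1 (Fpr2, -1.84, adjusted p = 0.0314 by edgeR), and the share of all genes for that filter is not given here. The median correlation of the 36 pairs was 0.861 as Spearman's rho. The 102 single-gene values that turned did not pass the adjusted threshold, and the cause was not tested. In Nckap1l genotype these were, with voom, S100a8 0.14, Fpr1 1.08, Fpr2 1.0 and Cxcr2 -0.21. Without knockout 5 and without wild type 10 the values were S100a8 -0.51 and 0.59, S100a9 -0.42 and 0.73, Fpr1 -0.59 and 0.64, Fpr2 -0.61 and 0.76, Cxcr2 -0.33 and 0.88, and Clec4e -0.9 and 0.4, and Trem1 was 0.5 without wild type 10. With run as a covariate they were S100a8 0.62, S100a9 0.53, Fpr1 0.96, Fpr2 0.69, Retnlg 0.22, Trem1 0.34 and Clec4e 0.32. Within run 1 they were S100a8 2.85, S100a9 3.06, Fpr1 2.81, Fpr2 2.37, Retnlg 2.06, Trem1 2.37 and Clec4e 2.24, and within run 3 Fpr1 1.44, Fpr2 0.7 and Cxcr2 -1.55. Cxcr2 was also -1.69 without skin-marker libraries, -1.24 in males and -1.39 within run 2. In Dock2 genotype the values without knockout 13 and without wild type 13, also the shallowest library, were S100a8 -2.12 and 0.89, S100a9 -2.12 and 0.88, Cxcr2 -1.16 and 1.25, Csf3r -0.68 and 0.85, Retnlg -1.87 and 0.15, Trem1 -1.76 and 0.3, and Clec4e -1.7 and 0.45. Cxcr2 and Csf3r were -1.12 and -0.72 without skin-marker libraries, and -0.98 and -0.53 in males, where Ly6g was -0.11. Cxcr2 was -0.16 without the sex covariate, and voom gave Retnlg 0.05 and Trem1 0.24. In Gpsm3 genotype they were Ly6g -0.22 within run 2 and Retnlg -0.01 without knockout 14 and 2.1 without wild type 14. In Dok3 genotype they were, with voom, S100a8 -0.52, S100a9 -0.48, Cxcr2 -0.72, Csf3r -0.08, Trem1 -0.06 and Clec4e -0.53. Without labelled knockout 17 and without wild type 18 the values were S100a8 -1.41 and 2.83, S100a9 -0.95 and 2.78, Fpr2 -0.67 and 1.86, Cxcr2 -0.6 and 1.04, Csf3r -0.18 and 0.78, Retnlg -1.76 and 2.17, Trem1 -0.45 and 1.56, and Clec4e -0.41 and 1.77. Within run 2 they were S100a8 -5.0, S100a9 -4.56, Fpr2 -2.19, Cxcr2 -2.81, Csf3r -1.53, Trem1 -3.6 and Clec4e -3.54. Without skin-marker libraries they were Cxcr2 -0.53, Csf3r -0.46 and Clec4e -0.08, and with run as a covariate Cxcr2 -0.09. Retnlg was 0.81 with that covariate and 3.16 within run 1. In Nckap1l sex they were, with voom, S100a8 0.29 and S100a9 0.21, and with run as a covariate S100a8 1.75, S100a9 1.69, Fpr1 1.54, Fpr2 1.01, Retnlg 1.87, Trem1 2.01 and Clec4e 1.61. Without knockout 5 and without wild type 10 the values were S100a8 -0.72 and 0.31, S100a9 -0.67 and 0.42, Fpr1 -0.87 and 0.3, Fpr2 -1.05 and 0.22, Cxcr2 -0.31 and 0.84, Csf3r -0.45 and 0.75, Retnlg -0.54 and 0.37, and Clec4e -1.17 and 0.01, and Trem1 was 0.44 without wild type 10. Cxcr2 and Csf3r were -0.91 and -0.85 without skin-marker libraries. In wild type, Dok3 minus Gpsm3, without Dok3 wild type 18, S100a8 was -0.06 and Retnlg -0.51, against 3.63 and 3.46 without Gpsm3 wild type 14. The filter set by the design, leaving out single high or sex-mismatched libraries, the fits within runs, Spearman's rho and voom for the differences of the genotype effect were chosen after seeing the data. Leaving out sex-mismatched libraries gave no value in Nckap1l and Dock2, which have none. No paired analysis was possible because the sample numbers differ between mice and pair no knockout with a wild-type mouse. At these depths a gene below 0.15 to 0.69 CPM rests on under 3 counts.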

Other observations

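Ly6g had its own set of correlated genes, listed here after its values were seen. Over the 160 libraries, with group means subtracted, the highest Pearson r with Ly6g were those of Plac8 (0.746), Prr13 (0.656), Rac1 (0.639), Pag1 (0.626) and Stx7 (0.622).

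Hemoglobin genes, markers of red blood cells, were above 0 in Nckap1l at unadjusted p-values. The 4 of them lay between 1.68 and 2.01 on the log2 scale, knockout minus wild type, with an adjusted p of 0.317 by edgeR for each. Of the 4 smooth muscle genes, 3 were below 0 in the same comparison, also at unadjusted p-values only, with -0.42 ± 0.17 for Acta2, -0.54 ± 0.23 for Myh11 and -0.37 ± 0.16 for Tagln (adjusted p = 1.0 by edgeR for each). The B cell genes Cd79a and Ms4a1 were below 0 at unadjusted p-values in Nckap1l (-2.60 ± 0.95 and -2.58 ± 0.82, adjusted p = 0.986 and 0.84 by edgeR) and in Dock2 (-0.93 ± 0.27 and -0.86 ± 0.25, adjusted p = 0.315 by edgeR for both). These values stand beside the comparisons of Nckap1l-/- and Dock2-/- with wild type, and their part in them was not tested.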
